A study of Mus musculus with 12 samples.

Results

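The 7 genes described here, *Zfp36*, *Zfp36l1*, *Zfp36l2*, *Zc3h12a*, *Zc3h12d*, *Rc3h1* and *Rc3h2*, encode proteins that bring cytokine mRNAs to decay. They were taken by name from the 24439 gene names measured in each library, not by any measured value, and all 7 were above 0 in all 12 libraries. The libraries were RNA-Seq libraries of T-blast cells (TB), which are CD4 T cells activated in culture and then kept dividing by IL-2. CD4 T cells came from spleens of C57BL/6 C42 mice, a line that carries a piece of the human *IL3*/*CSF2* locus, were purified on CD4 microbeads and were cultured for 40 h with 2 µg/ml concanavalin A, a lectin that activates T cells, and then with IL-2 at 50 U/ml (2 days by the sample labels, 30 h by the study's methods). Cells were next held for 16 h with IL-2 (TB IL-2) or without it (TB IL-2nil). Matching cultures were also given 20 ng/ml PMA and 2 µM of a calcium ionophore for 2 h (PMA/I), which stand in for signals of the T cell receptor, and are called TB+ IL-2 and TB+ IL-2nil. Cells not given PMA/I are called resting below, which does not mean that they had stopped dividing. The study describes T-blast cells in IL-2 as proliferating. There were 3 libraries in each of the 4 groups. The labels do not say whether replicates were separate animals or cultures, so the P-values measure only the spread between these libraries, which may be technical.

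The library labelled TB IL-2nil replicate 3 and the one labelled TB+ IL-2 replicate 3 were each placed in the group of the other. In the study's own table of differentially expressed genes the columns of these names hold each other's library, ranked alike over 1381 genes, while the other 10 columns hold the library of their own label. The level of *Il2*, which PMA/I induces, went against both labels, at 1368 FPKM in the library labelled TB IL-2nil replicate 3 and 0.290 FPKM in the one labelled TB+ IL-2 replicate 3, against 0 to 1.18 FPKM in the other TB libraries and 1095.0 to 2374 FPKM in the other TB+ libraries. Over the 7 genes, 16 differences passed an adjusted P of 0.05 with the libraries placed in this way, and under the labels none of the 16 did. Values under the labels and with both libraries left out are given below for the main results. The relative depth of the libraries spanned 3.05-fold, from 0.409 in TB IL-2nil replicate 2 to 1.245. The 6 T cell markers present in the files summed to 1425 to 1482 TPM in TB IL-2, 2210 to 2414 in TB IL-2nil, 1356 to 1512 in TB+ IL-2 and 1805 to 2122 in TB+ IL-2nil, lower with IL-2 without overlap as several of the 7 genes were. NK cell markers stayed at or below 0.303 TPM with *Ncr1* at 0, and myeloid markers at 1.74 to 4.88 TPM. The 4 B cell markers summed to 5.94 to 10.4 TPM in TB IL-2, 23.2 to 29.6 in TB IL-2nil, 2.36 to 3.31 in TB+ IL-2 and 5.49 to 12.7 in TB+ IL-2nil, so they moved with IL-2 and with PMA/I. The part of either marker list in the results below was not tested. CD8 T cell markers summed to 6.91 to 31.9 TPM over all libraries, and those of regulatory T cells to 31.4 to 68.7 TPM in TB IL-2 and 4.66 to 17.1 TPM elsewhere. Of the 3 regulatory T cell markers, 1 was higher with IL-2 in resting cells and 2 were on the lower side (median log2 difference -0.04). Their sum therefore does not describe all 3. In bulk RNA, fewer cells of a type and less RNA per cell cannot be told apart.

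Cytokine mRNAs are short-lived because their untranslated ends carry AU-rich elements and stem-loops that decay factors recognise. *Zfp36* (tristetraprolin), *Zfp36l1* and *Zfp36l2* are zinc finger proteins that bind AU-rich elements and recruit the CCR4-NOT deadenylase, which shortens the poly(A) tail. *Zc3h12a* (Regnase-1) is an endoribonuclease that cuts stem-loops of mRNAs under translation, and *Zc3h12d* is its paralog. *Rc3h1* and *Rc3h2* encode the Roquin proteins, which bind stem-loops and also recruit CCR4-NOT. In T cells these families hold back cytokine output and activation, and their own activity is controlled by kinases and by the protease MALT1 downstream of the T cell receptor.

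In mm9 (GENCODE M1 gene models), *Zfp36* lies on chromosome 7 from 29161803 to 29164274, *Zfp36l1* on chromosome 12 from 81208747 to 81214000 and *Zfp36l2* on chromosome 17 from 84583271 to 84587287, each on the minus strand and each with 2 exons. *Zc3h12a* lies on chromosome 4 from 124795667 to 124805084 (minus strand, 6 exons in its longest transcript) and *Zc3h12d* on chromosome 10 from 7552268 to 7590195 (plus strand, 6 exons). *Rc3h1* spans chromosome 1 from 162836549 to 162905109 (plus strand, 20 exons) and *Rc3h2* chromosome 2 from 37225589 to 37278423 (minus strand, 22 exons).

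The 250 bases before the transcription start (RefSeq, GRCm38.p6) are shown for the 3 genes that passed both the fold and the P-value criterion below, *Zfp36l1*, *Zc3h12a* and *Zc3h12d*, and for *Zfp36*, which did not. Capitals mark matches to an AP-1 motif (TGANTCA), a box with the letters TATAAA, an EGR motif (GCGNGGGCG), a STAT motif (TTCNNNGAA), a CRE (TGACGTCA), or an NF-kB or CArG motif, on either strand.
Zfp36l1, chr12:80113014-80113263, minus strand: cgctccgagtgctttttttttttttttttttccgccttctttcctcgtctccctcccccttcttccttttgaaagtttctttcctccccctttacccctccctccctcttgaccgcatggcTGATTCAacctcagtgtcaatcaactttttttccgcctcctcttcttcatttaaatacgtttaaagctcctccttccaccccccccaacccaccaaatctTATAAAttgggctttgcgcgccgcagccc
Zc3h12a, chr4:125127882-125128131, minus strand: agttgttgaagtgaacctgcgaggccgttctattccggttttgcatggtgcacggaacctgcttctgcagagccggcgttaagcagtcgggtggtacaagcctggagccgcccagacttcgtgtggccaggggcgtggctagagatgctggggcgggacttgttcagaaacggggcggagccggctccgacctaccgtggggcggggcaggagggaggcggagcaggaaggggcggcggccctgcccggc
Zc3h12d, chr10:7832220-7832469, plus strand: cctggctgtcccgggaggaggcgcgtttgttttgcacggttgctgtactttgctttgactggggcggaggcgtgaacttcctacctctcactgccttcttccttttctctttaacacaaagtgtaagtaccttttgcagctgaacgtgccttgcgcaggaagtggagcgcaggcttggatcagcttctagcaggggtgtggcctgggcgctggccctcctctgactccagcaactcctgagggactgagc
Zfp36, chr7:28379229-28379478, minus strand: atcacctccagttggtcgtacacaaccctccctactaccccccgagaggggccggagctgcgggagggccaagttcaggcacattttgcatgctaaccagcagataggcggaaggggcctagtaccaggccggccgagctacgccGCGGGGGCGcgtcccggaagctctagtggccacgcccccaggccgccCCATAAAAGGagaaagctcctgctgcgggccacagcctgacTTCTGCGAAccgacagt

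Of the 7 genes, 6 were matched to the promoter table and *Zfp36l2* was not. *Zfp36l1* held an AP-1 motif from 129 to 123 bases before its start and a TATA motif from 29 to 24. *Zfp36* held an EGR motif (105 to 97), a CArG box (58 to 49), the motif of serum response factor, and a STAT motif (17 to 9). *Rc3h1* held an AP-1 motif from 133 to 127 bases before its start. None of these motifs was matched in the windows of *Zc3h12a*, *Zc3h12d* and *Rc3h2*. Of all 32851 promoter windows of 300 bases, 7.81% hold the AP-1 letters, 13.6% the TATA letters, 5.55% the EGR letters, 8.3% the STAT letters, 1.63% a CArG box, 1.79% the CRE letters and 8.46% an NF-kB motif. An NFAT motif (GGAAAN), too common to mark at 61.2% of windows, occurred in those of *Zfp36l1*, *Rc3h1* and *Rc3h2*. A match describes the letters alone.

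**Figure D1:**
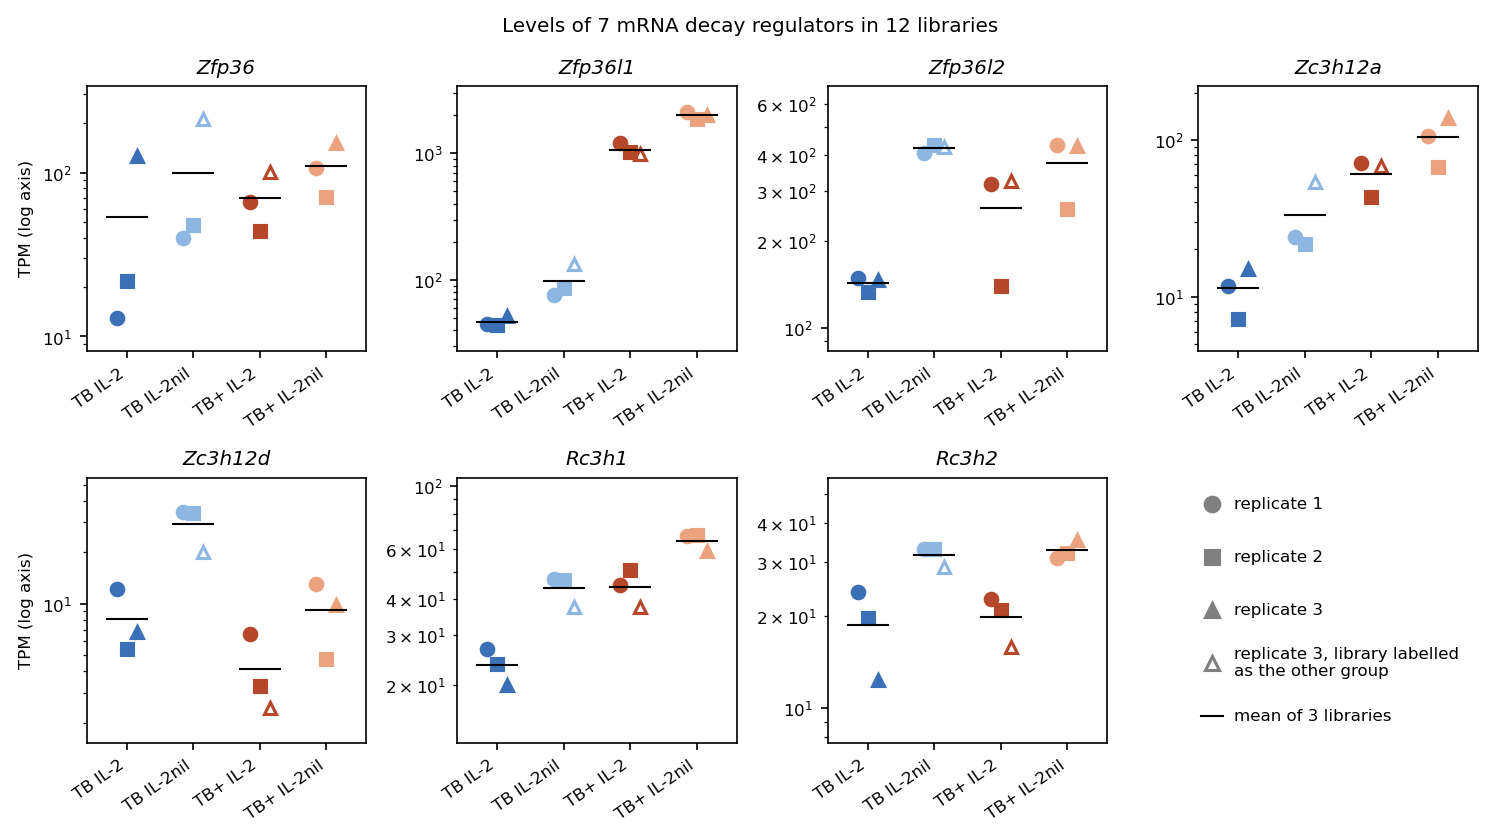
Level of each of the 7 genes in TPM (log axis, its range set per gene) in the 12 libraries, by group. Circles, squares and triangles are replicates 1, 2 and 3, open triangles are the 2 libraries placed in each other's group, and lines are means of 3 libraries. *Zfp36l1* separates the TB+ from the TB libraries without overlap, at 989 TPM or more against 133 TPM or less, while replicate 3 is the highest *Zfp36* value in every group.

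*Zfp36l1* had the widest range of levels among the 7 genes. In TPM, a share of all transcripts corrected for gene length, its level was 45.1, 43.6 and 51.5 in TB IL-2, 75.9, 86.3 and 133 in TB IL-2nil, 1202, 1026 and 989 in TB+ IL-2 and 2132, 1886 and 2011 in TB+ IL-2nil (replicates 1, 2 and 3). No 2 groups overlapped. The means were 46.7 ± 4.17, 98.3 ± 30.3, 1072 ± 114 and 2010 ± 123 TPM (SD, n = 3), and each neighbouring pair in this order differed (adjusted P = 0.00923 between the TB+ groups, 5.95e-07 between TB+ IL-2 and TB IL-2nil and 0.00256 between the TB groups, limma with Benjamini-Hochberg adjustment over 12442 genes, as in all adjusted P below). PMA/I raised *Zfp36l1* by 4.49 in log2(TPM + 1) with IL-2 (standard error (SE) 0.20, 22.5-fold, adjusted P = 1.25e-07) and by 4.38 without it (SE 0.20, 20.8-fold, adjusted P = 1.05e-07), with folds on the TPM + 1 scale here and below. IL-2 lowered it by about 1 log2 unit on both backgrounds, with differences of -1.02 in resting and -0.91 in PMA/I-treated cells (SE 0.20 each, adjusted P = 0.00256 and 0.00923). With both exchanged libraries left out, the PMA/I differences were 4.55 and 4.62 (adjusted P = 1.17e-06 and 9.96e-07). Under the labels they were 3.53 and 3.42 and did not pass (adjusted P = 0.143 and 0.0647).

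*Zfp36l2* was the most abundant of the 7 genes in both resting groups, where it was lower with IL-2. It stood at 149, 133 and 147 TPM in TB IL-2 and at 405, 432 and 424 TPM in TB IL-2nil, which did not overlap. In TB+ IL-2 it was at 316, 140.1 and 325 TPM and in TB+ IL-2nil at 433, 258 and 427 TPM, with replicate 2 the lowest of each TB+ group. Resting cells with IL-2 were lower by 1.55 in log2(TPM + 1), a log2 difference of -1.55 (SE 0.30, 2.93-fold, adjusted P = 0.00262), just short of 3-fold. After PMA/I the IL-2 difference was -0.57 with overlapping groups (95% confidence interval -1.24 to 0.09, adjusted P = 0.204). The PMA/I difference was 0.77 with IL-2 (95% confidence interval 0.10 to 1.43, adjusted P = 0.0717) and -0.21 without it (-0.88 to 0.46, adjusted P = 0.562). With the replicate number as a block the PMA/I difference with IL-2 passed (adjusted P = 0.0268), and it also passed without TB+ IL-2 replicate 2, at 1.16 (adjusted P = 0.00475). The PMA/I difference without IL-2 passed as lower with quantile normalization, at -0.88 (adjusted P = 0.032). By mean the order was TB IL-2nil (421 ± 13.6 TPM), TB+ IL-2nil (373 ± 99.3), TB+ IL-2 (260 ± 104) and TB IL-2 (143 ± 8.82; SD, n = 3). No neighbouring groups in this order differed by the adjusted P in the main fit, which has no block.

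*Zfp36* encodes the founding member of its family and had the widest spread between replicates of the 7. Its level was 13.0, 21.9 and 126 TPM in TB IL-2, 40.0, 48.2 and 211 TPM in TB IL-2nil, 66.4, 44.2 and 100.3 TPM in TB+ IL-2 and 106, 71.4 and 150.5 TPM in TB+ IL-2nil. Replicate 3 was the highest library of every group, and all groups overlapped. None of the 4 differences passed, with log2(TPM + 1) values of -1.13 for IL-2 in resting cells (95% confidence interval -2.87 to 0.60, adjusted P = 0.274), 0.98 and 0.49 for PMA/I with and without IL-2 (adjusted P = 0.366 and 0.609) and -0.64 for IL-2 after PMA/I (adjusted P = 0.604). The SE of 0.79 was the largest of the 7. Within pairs of the same replicate number *Zfp36* was lower with IL-2 in 3 of 3 in resting cells and in 3 of 3 after PMA/I, and with the replicate block the SE was 0.45 and the adjusted P 0.0617 and 0.301. Without TB IL-2 replicate 3 the resting IL-2 difference was -2.07 (adjusted P = 0.0372).

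*Zfp36l1* made up most of the ZFP36 family's mRNA with PMA/I, and *Zfp36l2* was the largest part without. Summed over *Zfp36*, *Zfp36l1* and *Zfp36l2*, the level was 243.2 ± 70.1 TPM in TB IL-2, 618.5 ± 131 in TB IL-2nil, 1403 ± 187 in TB+ IL-2 and 2492 ± 243 in TB+ IL-2nil (SD, n = 3), and its ranges did not overlap between groups (198 to 324, 521 to 768, 1210 to 1585 and 2216 to 2671 TPM). *Zfp36l2* made up 61.4 ± 14.2% and 69.8 ± 12.6% of the sum in TB IL-2 and TB IL-2nil, but 18.2 ± 5.90% and 14.8 ± 2.72% in TB+ IL-2 and TB+ IL-2nil. The share of *Zfp36l1* went the other way, from 19.9 ± 3.46% and 15.7 ± 1.43% to 76.9 ± 7.46% and 80.9 ± 3.83%. In each of the 6 TB+ libraries *Zfp36l1* held at least 69.9% and in each of the 6 TB libraries at most 22.0%.

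These shares are taken within a library and do not depend on the scaling between libraries. The *Zfp36l1* share was higher with PMA/I by 61.1 percentage points, and that of *Zfp36l2* differed by -49.1 points (two-sided exact permutation test within the 2 IL-2 conditions, P = 0.005 for each, the smallest of 400 regroupings). The regroupings took no account of the replicate number, although libraries of the same number deviated together, and the shares were not tested by pairs. The 3 shares add up to the whole, so a higher share of *Zfp36l1* lowers the others and their falls are not separate results. In the main fit the levels of *Zfp36l2* and *Zfp36* did not pass as changed by PMA/I. In some alternatives the level of *Zfp36l2* passed, as higher in cells with IL-2 and as lower in cells without it. Under the labels the differences were 43.5 points for *Zfp36l1* and -38.4 for *Zfp36l2* (exact P = 0.015 and 0.02), and with both exchanged libraries left out 63.2 and -53.9 (exact P = 0.01 for each). The share of *Zfp36* itself was 18.7 ± 17.6% and 14.5 ± 11.2% without and 4.98 ± 1.85% and 4.33 ± 1.33% with PMA/I, a difference of -12.0 points (exact permutation P = 0.01). The highest *Zfp36* shares were in the replicate 3 libraries, at 38.8% in TB IL-2 and 27.5% in TB IL-2nil against 6.27 to 11.02% in the other 4 TB libraries. The difference was -9.26 points without the exchanged libraries (exact P = 0.1) and -5.18 under the labels (exact P = 0.405), and did not pass without any single one of the TB+ IL-2 libraries or of TB+ IL-2nil replicates 1 and 2 (-12.5 to -11.6 points, exact P = 0.055 to 0.1).

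**Figure D2:**
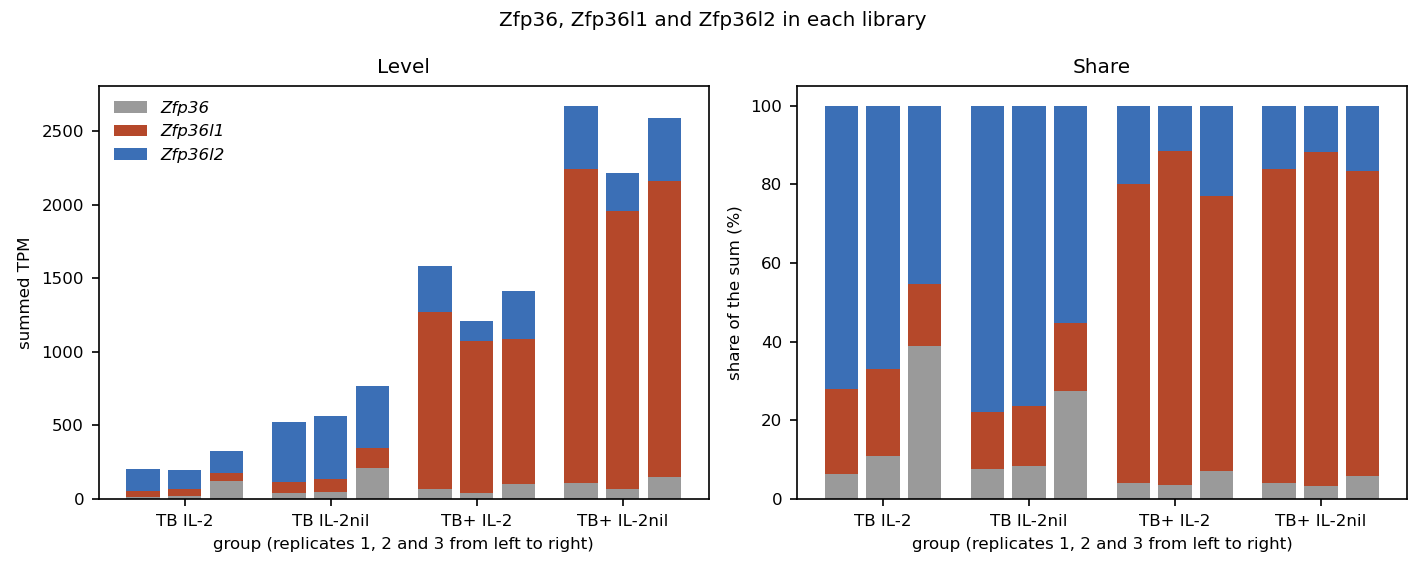
Summed level in TPM (left) and share of the sum in % (right) of *Zfp36* (grey), *Zfp36l1* (red) and *Zfp36l2* (blue), 1 bar per library, by group. *Zfp36l2* is the largest part of all 6 TB bars and *Zfp36l1* of all 6 TB+ bars, where the sum reaches 1210 to 2671 TPM.

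The Regnase genes moved in opposite directions under PMA/I in cells without IL-2. *Zc3h12a* was measured at 11.8, 7.19 and 14.96 TPM in TB IL-2, 24.1, 21.8 and 53.4 TPM in TB IL-2nil, 71.5, 43.1 and 67.8 TPM in TB+ IL-2 and 106, 67.1 and 138 TPM in TB+ IL-2nil. Both TB+ groups lay above the TB group of the same IL-2 condition without overlap. The rise was 2.35 in log2(TPM + 1) with IL-2 (SE 0.39, 5.09-fold, adjusted P = 0.00105) and 1.67 without it (SE 0.39, 3.18-fold, adjusted P = 0.00312). The second lies near the 3-fold limit and fell under it, with the same direction, without scaling (1.12), with quantile normalization (1.54) and without TB IL-2nil replicate 1 (1.51) or 2 (1.44) or TB+ IL-2nil replicate 3 (1.44). Under the labels the values were 2.24 and 1.56 (adjusted P = 0.0633 and 0.0662), and with both exchanged libraries left out 2.25 and 2.07 (adjusted P = 0.0029 and 0.00176). With IL-2, resting cells had less *Zc3h12a*, at a log2 difference of -1.41 (SE 0.39, adjusted P = 0.0144). This was -1.01 with both exchanged libraries left out (adjusted P = 0.0658), -1.01 without TB IL-2nil replicate 3 alone (adjusted P = 0.0518) and -1.14 without TB IL-2 replicate 2 (adjusted P = 0.0623). It passed 3-fold as well without TB IL-2 replicate 3 (-1.62) or TB IL-2nil replicate 2 (-1.64).

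*Zc3h12d* was the least abundant member on average and was highest in resting cells deprived of IL-2. Its level was 12.2, 5.42 and 6.79 TPM in TB IL-2, 34.4, 33.9 and 20.1 TPM in TB IL-2nil, 6.66, 3.29 and 2.44 TPM in TB+ IL-2 and 13.0, 4.72 and 9.78 TPM in TB+ IL-2nil. All 3 TB IL-2nil libraries lay above every other library, and the other 3 groups overlapped. IL-2 lowered it in resting cells by a log2 difference of -1.77 (SE 0.41, 3.41-fold, adjusted P = 0.00597), and PMA/I lowered it in cells without IL-2 by -1.64 (SE 0.41, 3.12-fold, adjusted P = 0.00466). Both were close to 3-fold. The first was -1.55 (adjusted P = 0.0287) without TB IL-2 replicate 2, and the second was -1.31 with quantile normalization, -1.51 and -1.52 without TB IL-2nil replicate 1 and 2 and -1.27 without TB+ IL-2nil replicate 2. With both exchanged libraries left out they were -2.01 and -1.89 (adjusted P = 0.0098 and 0.00584), and under the labels -0.90 and -0.77 (adjusted P = 0.739 and 0.543). With IL-2 present, the PMA/I difference was -0.85 (95% confidence interval -1.74 to 0.04, adjusted P = 0.128, and 0.0321 with the replicate block). *Zc3h12a* made up 58.3 ± 9.93% and 51.0 ± 18.8% of the summed Regnase TPM in TB IL-2 and TB IL-2nil and 93.6 ± 2.61% and 91.9 ± 2.50% in the TB+ groups (SD, n = 3).

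Every difference of the Roquin genes was below 2-fold. *Rc3h1* was at 26.6, 23.7 and 19.95 TPM in TB IL-2, 47.1, 46.8 and 37.3 TPM in TB IL-2nil, 44.7, 50.4 and 37.5 TPM in TB+ IL-2 and 66.8, 67.0 and 59.0 TPM in TB+ IL-2nil. TB IL-2nil and TB+ IL-2 overlapped at almost the same mean (43.8 ± 5.55 and 44.2 ± 6.51 TPM; SD, n = 3), with TB IL-2 below and TB+ IL-2nil above both. PMA/I raised *Rc3h1* by 0.89 with IL-2 (SE 0.17, adjusted P = 0.00243) and by 0.55 without it (SE 0.17, adjusted P = 0.0153), and IL-2 lowered it in resting cells, at -0.87 (SE 0.17, adjusted P = 0.00248). The value of 0.55 depended on the placement, the scaling and single libraries. With both exchanged libraries left out it was 0.44 (adjusted P = 0.0565), and under the labels 0.55 (adjusted P = 0.11). It was 0.00 without scaling, where the median of all genes lay at -0.78 in place of -0.38, and 0.40 with quantile normalization (adjusted P = 0.996 and 0.0605). Without TB IL-2nil replicate 3 it was 0.44 (adjusted P = 0.0602). The value of 0.89 had an adjusted P of 0.0907 under the labels and was 0.81 without scaling (adjusted P = 0.0724).

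*Rc3h2* separated the libraries by IL-2. It stood at 23.9, 19.6 and 12.3 TPM in TB IL-2 and 22.6, 20.9 and 15.8 TPM in TB+ IL-2, against 32.9, 33.0 and 28.8 TPM in TB IL-2nil and 30.8, 32.0 and 35.3 TPM in TB+ IL-2nil. Every library with IL-2 was below every library without it. The IL-2 difference was -0.78 in resting cells (SE 0.22, adjusted P = 0.0174) and -0.71 after PMA/I (SE 0.22, adjusted P = 0.0424). The PMA/I differences were 0.12 with IL-2 (95% confidence interval -0.37 to 0.60) and 0.05 without it (-0.44 to 0.54), and both intervals lie within 2-fold on this scale. The resting IL-2 difference no longer passed without TB IL-2 replicate 3 (-0.52, adjusted P = 0.0617) or TB IL-2nil replicate 1 (-0.75, 0.05) or 2 (-0.74, 0.0514), without scaling (-0.86, 0.0858), with the 2 groups alone (0.0539) or under the labels (-0.50, 0.59). *Rc3h1* made up 56.5 ± 4.80% and 58.0 ± 1.33% of the summed Roquin TPM in TB IL-2 and TB IL-2nil and 69.2 ± 2.38% and 66.2 ± 3.18% in TB+ IL-2 and TB+ IL-2nil.

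**Figure D3:**
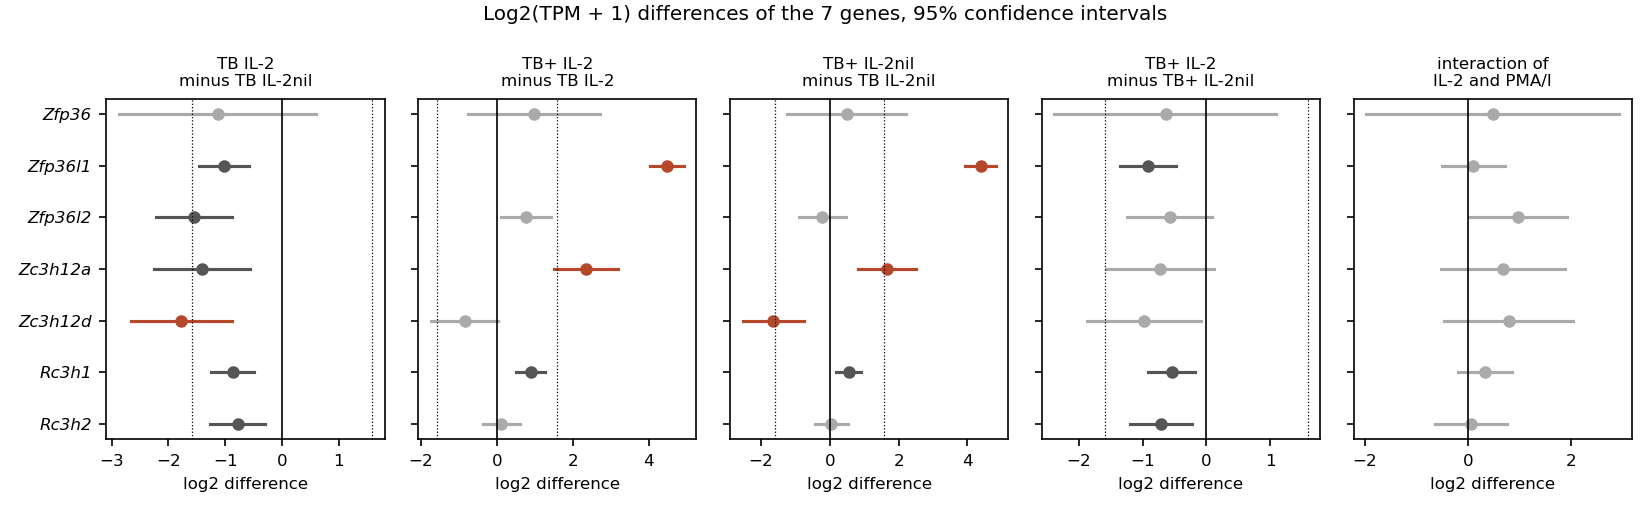
Log2(TPM + 1) differences of the 7 genes in the 4 comparisons and the interaction, with 95% confidence intervals (limma, 3 libraries per group). Red points passed 3-fold and an adjusted P of 0.05, dark grey points the adjusted P alone and light grey points neither, and dotted lines mark 3-fold. All 7 points lie below 0 in both IL-2 comparisons, while under PMA/I *Zfp36l1* stands near 4.4 and *Zc3h12d* below 0.

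Taken by comparison, IL-2 lowered most of the 7 genes in resting cells. All 7 differences were below 0, as were 57.2% of the 12442 genes tested, and 6 of 7 passed the adjusted P as lower, against 22.3% of all genes. The groups did not overlap for the same 6 genes, all but *Zfp36*, against 30.4% of all genes lower without overlap. Their median was -1.13 against -0.13 over all genes. Only *Zc3h12d* also exceeded 3-fold, as did 2.73% of all genes as lower and 4.69% as higher. All 7 stayed below 0 in the 23 alternatives run. Under the labels none of the 7 passed (limma, 3 of 7 at an unadjusted P under 0.05), and with both exchanged libraries left out 5 did, at -0.78 for *Zfp36l1* (adjusted P = 0.00893), -1.55 for *Zfp36l2* (0.011), -2.01 for *Zc3h12d* (0.0098), -0.98 for *Rc3h1* (0.00459) and -0.84 for *Rc3h2* (0.0315). Leaving out any single library left 5 or 6.

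After PMA/I, IL-2 was again on the lower side for all 7 genes, while 53.2% of all genes tested were below 0. The median of the 7 was -0.71, and that of all genes -0.04. Here 3 of 7 passed the adjusted P as lower, *Zfp36l1*, *Rc3h1* and *Rc3h2*, against 8.4% of all genes, and the same 3 were lower without overlap, against 18.3%. None exceeded 3-fold (limma, 4 of 7 at an unadjusted P under 0.05), as 3.62% of all genes did in either direction. With the replicate block 5 of 7 passed, with *Zc3h12a* (-0.73, adjusted P = 0.0193) and *Zc3h12d* (-0.98, adjusted P = 0.0245) added. The Roquin values were at the edge of the threshold, since *Rc3h1* (-0.54, SE 0.17, adjusted P = 0.0438) missed it without any of 8 of the 12 libraries (adjusted P = 0.0504 to 0.163) and *Rc3h2* without any of 9 (0.0532 to 0.157). With both exchanged libraries left out 1 of 7 passed, and under the labels none did (limma, 1 of 7 at an unadjusted P under 0.05). Without scaling none passed as well, where the median of all genes was 0.23 and *Zfp36l1*, *Rc3h1* and *Rc3h2* were at -0.51, -0.15 and -0.33.

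For PMA/I with IL-2, 2 of 7 genes were called higher at more than 3-fold, *Zfp36l1* and *Zc3h12a*, against 3.94% of all genes, and 3 of 7 passed the adjusted P as higher, against 11.8%. The replicate block made this 4 higher and 1 lower. For PMA/I without IL-2, the same 2 genes were called higher, against 7.78% of all genes, and *Zc3h12d* lower, against 10.7%. As higher by the adjusted P alone, 3 of 7 passed, against 20.1% of all genes. Both comparisons kept their 3-fold calls with the exchanged libraries left out, where 2 in place of 3 passed as higher without IL-2, and held none under the labels. No interaction of IL-2 and PMA/I passed for any of the 7 (limma, 1 of 7 at an unadjusted P under 0.05, none under the labels), against 4.23% of all genes. The nearest was *Zfp36l2* at 0.98 (SE 0.43, 95% confidence interval 0.03 to 1.92, adjusted P = 0.202). The comparisons share groups, so their values are not independent of each other.

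Among 8797 genes with a mean of at least 5 TPM, the profile most like that of *Zfp36l1* over the 12 libraries was that of *Rel*, which encodes an NF-kB subunit, at a root mean square difference of 0.076 between standardised log2(TPM + 1) values, where the median gene was at 1.54. *Fnip1* (0.111) and *Pou2af1* (0.118) came next. *Rc3h1* was nearest to *Tet3* (0.163), *Trio* (0.169) and *Pik3ca* (0.171), and *Zc3h12d* to *Dirc2* (0.175), *Kmt2a* (0.189) and *Bbx* (0.207). *Zc3h12a* was nearest to *6820431F20Rik* (0.256), *Nsun6* (0.261) and *Ier5* (0.264). Less close neighbours were found for *Rc3h2*, with *Rabgap1l* (0.31), *0610030E20Rik* (0.331) and *D5Ertd615e* (0.331), and for *Zfp36l2*, with *Zcchc6* (0.357), *Slc26a11* (0.366) and *Tgfbr2* (0.38). *Zfp36* was farthest from its neighbours *Map3k12* (0.479), *Ing3* (0.509) and *Tnfaip3* (0.525). Among the 7, the closest pair was *Zfp36l1* and *Zc3h12a* (0.4) and the farthest *Zfp36l1* and *Zc3h12d* (1.62). These are descriptions over libraries that share groups.

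Of the paralogs not among the 7, *Zfp36l3* and *Zc3h12b* never exceeded 0.148 and 0.731 TPM. *Zc3h12c*, also of the Regnase family, was at a mean of 0.251 TPM in TB IL-2 and 0.237 TPM in TB IL-2nil and of 3.36 and 4.13 TPM in TB+ IL-2 and TB+ IL-2nil. Its log2(TPM + 1) difference under PMA/I was 1.80 with IL-2 (SE 0.16, adjusted P = 1.49e-05) and 2.05 without it (SE 0.16, adjusted P = 2.7e-06), a scale that understates changes at such low levels.

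The genes that the 7 proteins act with are given by list, each count beside the share of all genes called. Of 15 deadenylase genes tested, none was called in PMA/I with IL-2 (3.94% of all genes higher and 3.1% lower) and 1 without it (7.78% higher and 10.7% lower), *Cnot6l*, a catalytic subunit of CCR4-NOT, at -1.99 (SE 0.22, adjusted P = 2.21e-05). None of the 15 was called for IL-2 in resting cells (2.73% of all genes lower and 4.69% higher). By the adjusted P alone 4 were lower and 1 higher (limma), against 22.3% and 17.3% of all genes. Of 13 genes of decapping and of decay from the cap end, 1 was called, near the same share of 10.7% lower, the exonuclease gene *Xrn1*, at -1.89 without IL-2 (SE 0.27, adjusted P = 0.000121). The exosome list of 16 genes also holds *Skiv2l*, *Ttc37*, *Wdr61* and *Hbs1l*, which do not encode subunits of the exosome itself. Of the 16, 3 were called higher by PMA/I without IL-2, against 7.78% of all genes, and none with it. These were *Dis3* (2.49), *Exosc6* (2.43) and *Exosc2* (1.73; adjusted P = 6.8e-06 to 3.43e-05). The exosome is the complex that degrades RNA from the tail end. In resting cells 9 of the 16 listed genes were higher with IL-2 by the adjusted P, against 17.3% of all genes. Among these 9 were *Dis3*, at 1.82 (SE 0.22, adjusted P = 0.000208), and *Wdr61*, at 0.61 (adjusted P = 0.0137). The median of the 16 listed genes was 0.66, of opposite sign to the -1.13 of the 7 genes. Of 14 other AU-rich element binding proteins, 1 was called higher for IL-2 in resting cells (4.69% of all genes) and none lower (2.73%). For PMA/I with IL-2, 1 was called lower (3.1%) and none higher (3.94%). For PMA/I without IL-2, 1 was called higher (7.78%) and 2 lower (10.7%). These counts lie near the shares of all genes. *Hnrnpab* was the gene higher with IL-2 in resting cells (2.18, SE 0.21, adjusted P = 6.71e-05) and with PMA/I without IL-2 (2.42, SE 0.21, adjusted P = 5.14e-06). *Arid5a*, which protects some cytokine mRNAs from Regnase-1, was lower with PMA/I on both backgrounds (-1.79 and -1.96, adjusted P = 0.000372 and 6.12e-05), and *Tia1* lower without IL-2 (-1.74, adjusted P = 7.58e-05).

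Of 20 regulators and partners of the 7 proteins, 2 were called higher by PMA/I with IL-2 and 4 without it, against 3.94% and 7.78% of all genes. *Malt1*, whose protease cleaves Regnase-1 and the Roquins, went from 33.2 ± 8.03 to 181 ± 45.6 TPM with IL-2 and from 60.1 ± 15.1 to 364 ± 92.6 TPM without it (SD, n = 3; log2 differences 2.41 and 2.58, adjusted P = 0.000115 and 2.07e-05). *Mapkapk2*, whose kinase phosphorylates tristetraprolin, differed by 2.11 and 3.07 (adjusted P = 0.000319 and 8.82e-06). *Bcl10*, the partner of MALT1, was called without IL-2 only, at 1.84 (adjusted P = 1.37e-05), as was *Ppp2ca*, a phosphatase subunit named after its values had been seen, at 1.72 (adjusted P = 1.49e-05). The difference between the backgrounds was not called for any of the 20. With IL-2 in resting or PMA/I-treated cells none of the 20 was called.

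Of 23 transcripts reported as targets of these families, 18 were called higher by PMA/I with IL-2 and 19 without it, against 3.94% and 7.78% of all genes, and none lower, with medians of 3.41 and 4.66 against -0.22 and -0.38 over all genes. *Il2* and *Il3* differed most with IL-2 (both 11.67, adjusted P = 2.01e-07 and 4.04e-08) and *Il2* without it (10.79, adjusted P = 2.56e-07). *Rel*, nearest to *Zfp36l1* in profile, is one of these 23. For IL-2 in resting cells, where the 7 decay regulators were on the lower side, the same list had a median of 0.13 (-0.13 over all genes). A link between regulators and targets was not tested. Of the 23 targets, 12 were above 0 and 11 below (57.2% of all genes below 0). At more than 3-fold 5 were called higher and 1 lower (4.69% and 2.73% of all genes). Those highest with IL-2 were *Lif* (35.3 ± 11.7 against 0.907 ± 0.158 TPM, log2 difference 4.20, adjusted P = 0.000497) and *Tnf* (57.0 ± 25.0 against 6.04 ± 2.89 TPM, 3.01, adjusted P = 0.00144), and the lower one was *Ctla4* (-2.20, adjusted P = 0.0186). For IL-2 after PMA/I the list had a median of -0.49 (-0.04 over all genes), with 16 of 23 below 0 (53.2% of all genes). By the adjusted P alone 4 were lower (8.4% of all genes) and 3 higher. At more than 3-fold 2 were called higher and none lower (3.62% of all genes in either direction). Of these 2, *Csf2*, which encodes GM-CSF, was at 2575 ± 983 TPM with IL-2 against 642 ± 173.5 TPM without it (1.97, adjusted P = 0.00323). For the interaction, 3 of 16 genes of the exosome list, 2 of 14 other AU-rich element binding proteins and 4 of 23 targets were called, all below 0. Of all genes 4.23% were called for it, 331 of these 526 below 0. Among the list genes called were *Dis3* at -2.08 (SE 0.31, adjusted P = 0.012), *Hnrnpab* at -1.88 (SE 0.29, adjusted P = 0.0125) and *Lif* at -4.80 (SE 0.85, adjusted P = 0.0198). With both exchanged libraries left out, no gene of these 3 lists was called for the interaction. Under the labels no gene of these lists was called except 1 regulator and 2 targets for PMA/I without IL-2.

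**Figure D4:**
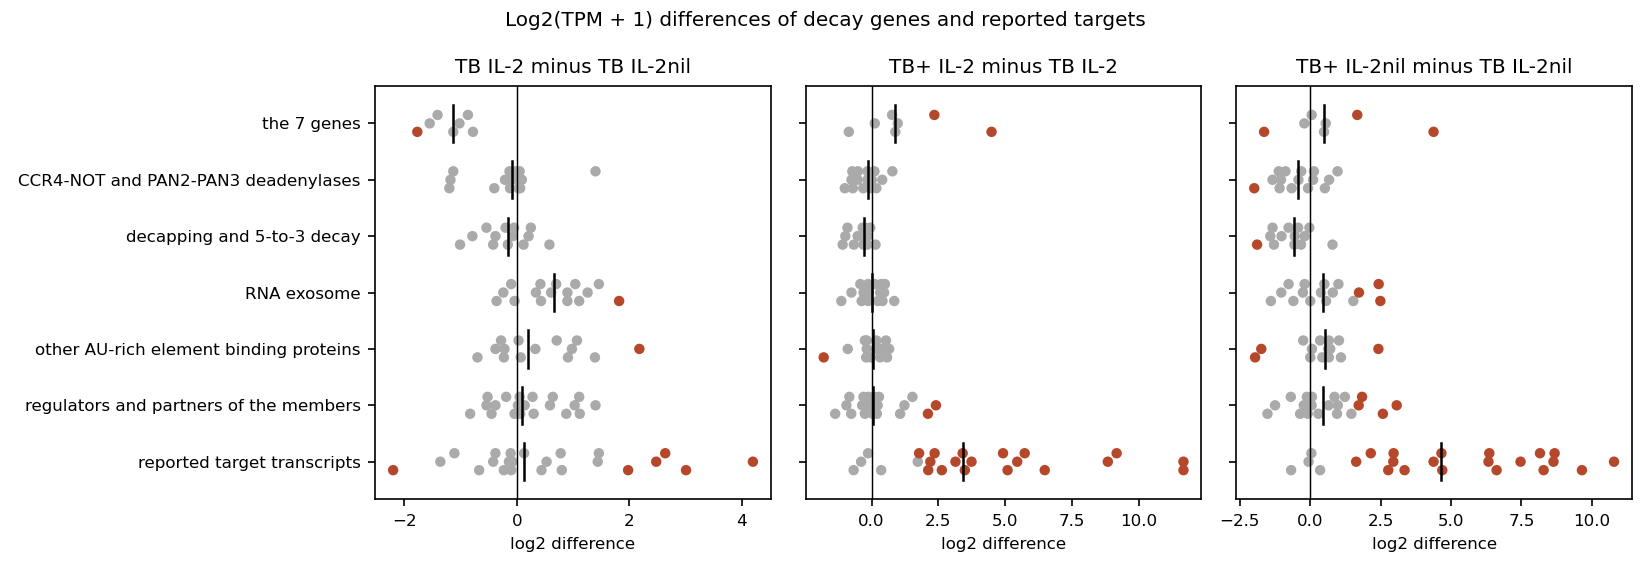
Log2(TPM + 1) differences of the 7 genes and of the genes in each list (rows) for IL-2 in resting cells (left) and PMA/I with (middle) and without IL-2 (right), 1 point per gene. Red points were called and grey points were not, and bars are medians, which for the target transcripts are 0.13, 3.41 and 4.66 from left to right.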

How the data were processed

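RNA-Seq of rRNA-depleted, strand-specific libraries was done in 12 libraries, 3 in each of 4 groups. The authors used Trimmomatic 0.32 for trimming, HISAT2 2.1.0 for alignment to mm9 and StringTie 1.3.3 for quantification on RefSeq models, and deposited FPKM values, which correct for gene length and for the reads mapped. TPM is the unit in the methods and in the plan of the tests made here, but column sums of 193815 to 420487 show that the deposited unit is FPKM. No read counts were used, so counting error is unknown and is covered only through replicates, whether strand was used in quantification is not given in the sources used here, and relative depth was read from the steps between low values.

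Here each library was rescaled to 1000000 TPM, genes above 1 TPM in at least 1 library were kept (12442, with 7 of the 7 regulators), and the 75th percentile of each library was set to the mean of the 12. Short non-coding RNAs took 16.6 to 53.3% of the TPM of a library before scaling. A model of the 4 groups on log2(TPM + 1), with 8 residual degrees of freedom, was run in limma 3.58.1 under R 4.3.3 and was tested on simulated data. A call required an adjusted P (Benjamini-Hochberg) below 0.05 together with a change above 3-fold (1.58 in log2), the latter not for the interaction. Differences of genes with few TPM are understated on this scale. Shares were compared by an exact permutation test within IL-2 conditions, without regard to the replicate number.

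The 7 genes, the lists and the comparisons were chosen with earlier results of these data known. Named genes are the 7, up to 3 called genes of each list with the largest difference per comparison, and the 3 nearest profiles of each of the 7. Alternatives were 2 other placements of 2 libraries, another pseudocount (0.1), filters, scalings and priors, a replicate block, the 2 groups alone and each library left out. Once placed as described, libraries of the same replicate number in the labels deviated together from their group means. All 18 correlations were above 0.1 (0.101 to 0.531). Blocked values of the log2 differences therefore stand beside results whose call they change, while the shares have none. Promoters are from RefSeq on GRCm38.p6 and gene coordinates from GENCODE M1 on mm9. Other steps ran in Python 3.11.15 (numpy 2.4.6, pandas 2.3.3, matplotlib 3.10.9).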

Additional observations from a re-analysis of the deposited data

How the results depend on the processing

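Over the 7 genes and 5 comparisons, 762 of 798 values under the 23 alternatives kept their direction and their side of the joint criterion of 3-fold and adjusted P, 16 lost a call, 5 gained one and 15 changed sign. By the adjusted P alone, 57 values were lost over all alternatives, 16 of them under the labels, and 8 gained. The cause of these changes was not tested. Under the labels, genes called numbered 12 for IL-2 in resting cells (923 otherwise), 44 for PMA/I with IL-2 (876), 255 for PMA/I without IL-2 (2296), 15 for IL-2 after PMA/I (451) and 0 for the interaction (526, and 413 at an unadjusted P under 0.05 under the labels), and none of the 7 was called in any comparison. A pseudocount of 0.1 gave 1470, 3472, 691 and 241 genes for PMA/I with IL-2, PMA/I without IL-2, IL-2 after PMA/I and the interaction. The interaction had 4 genes with both exchanged libraries left out, 1 without scaling and 1478 with the replicate block, which changed no call among the 7 at 3-fold. Leaving out 1 library at a time gave 802 to 1086, 771 to 1047, 2067 to 2713, 348 to 511 and 85 to 1314 genes in the same order as for the labels. Of the 7, 0 to 3 were then called for IL-2 in resting cells, 2 for PMA/I with IL-2 and 1 to 3 for PMA/I without IL-2. No scaling and quantile normalization each called 2 for IL-2 in resting cells, adding *Zfp36l2* (-1.63 and -1.87), and quantile normalization called 1 for PMA/I without IL-2. The PMA/I shares ranged from 59.1 to 62.8 points for *Zfp36l1*, -53.1 to -46.5 for *Zfp36l2* and -15.1 to -6.94 for *Zfp36*, when 1 library was left out. Under the labels they were 43.5, -38.4 and -5.18, and without the exchanged libraries 63.2, -53.9 and -9.26.

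None of the values that changed sign had been called. Leaving out 1 library at a time, *Rc3h2* ranged from -0.01 to 0.09 for PMA/I without IL-2, from -0.14 to 0.31 for PMA/I with IL-2 and from -0.19 to 0.26 for the interaction, *Zfp36* from -0.26 to 1.43 and *Zfp36l1* from -0.13 to 0.27 for the interaction, and *Zfp36l2* from -0.34 to 0.03 for PMA/I without IL-2. For that comparison no scaling gave -0.49 for *Rc3h2* and -0.06 for *Zfp36*. With both exchanged libraries left out, *Rc3h2* was at -0.01 for PMA/I without IL-2, and the interactions of *Zfp36* and *Zfp36l1* were -0.55 and -0.07. *Zc3h12d* was at 0.02 for PMA/I with IL-2 under the labels. No scaling moved the median of all genes from -0.13, -0.22, -0.38, -0.04 and 0.16 to -0.19, -0.29, -0.78, 0.23 and 0.51 (the comparisons in the order used for the labels, and the interaction last). A library left out leaves 2 in its group.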
